A study of Lolium multiflorum with 4 samples.

Results

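Transcript levels were compared between seedlings of the Italian ryegrass line LmHC (Lolium multiflorum High Cadmium) after 24 h in 300 µM cadmium chloride and LmHC seedlings at 0 h. The comparison was defined by the sample labels and uses 2 of the 4 libraries of the series, 1 at each time. The other 2 libraries are the same times of a second line, LmLC (Low Cadmium), which are used here only as a yardstick. Per the labels' protocols, seedlings of both lines were germinated on sterile agar, moved to Hoagland nutrient solution and treated at an age of 2 weeks. Total RNA came from what the protocol calls only plant tissue, and oligo(dT) beads captured its mRNA. The labels enter "High Cadmium" and "Low Cadmium" as a treatment, while the growth and treatment protocols name LmHC and LmLC as seed material; they were taken as lines here. No untreated library at 24 h was analysed, so the effect of cadmium cannot be told apart from that of the elapsed 24 h. The number of seedlings in a library is not given in the sources used here.

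Italian ryegrass is a forage grass. Cadmium has no known use in plants and enters root cells largely through carriers for iron, zinc, manganese and calcium. Inside cells it binds thiol groups, and plants are known to answer with phytochelatins, which are sulfur-rich peptides that chelate the metal, with pumping into the vacuole, and with antioxidant and protein-folding genes. The series set out to find genes, with an interest in cadmium transporters, whose expression separates LmHC and LmLC. The deposited table lists assembled contigs by identifier and does not pair them with gene names, so no contig can be assigned to any of these routes, and markers of the harvested tissue were not checked. The results therefore describe contigs, and clusters of contigs whose identifiers share a CL prefix.

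Levels are in FPKM, fragments scaled to contig length and to the mapped fragments of the library, so contigs are compared per length and each library is a set of relative amounts. The columns summed to 782476 FPKM in LmHC at 24 h and 783112 FPKM in LmHC at 0 h. Of 111761 contigs, 70885 averaged at least 1 FPKM over the 4 libraries and were called expressed. They held 97.6% of the FPKM in LmHC at 24 h and 98.3% in LmHC at 0 h. The number of fragments is not in the table, but low values recur in steps of 1 fragment. The steps gave the 24 h library of LmHC a depth of 0.953 relative to its 0 h library, in a search over depth ratios up to 4-fold either way, on the assumption that fragment lengths were alike. With 1 library at each time there is no replicate error, and no test was possible. A contig or cluster was counted as higher or lower at 24 h when (FPKM + 1) differed at least 2-fold.

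After 24 h of cadmium the LmHC transcriptome showed moderate decreases and larger increases. Over all expressed contigs, with FPKM as deposited, their numbers were similar. An increase of 2-fold or more was found for 20018 of the expressed contigs (28.2%) and a decrease of that size for 19536 (27.6%), and 31331 stayed within 2-fold. The 31331 include 1348 contigs listed at 0 in both LmHC libraries, which count as unchanged without having been detected in LmHC. The median log2 ratio was 1.94 among the higher contigs and -1.40 among the lower ones. Past 8-fold there were 3086 increases (4.35%) and 222 decreases (0.313%). As deposited, the most frequent change was a decrease of about 2-fold: the fullest bin of log2 ratios ran from -1.25 to -1.0 and held 6159 contigs. In LmLC 29.3% of contigs were at least 2-fold higher and 24.8% lower, and the fullest bin ran from -1.0 to -0.75. The middle 50% of log2 ratios in LmHC lay between -1.07 and 1.22.

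**Figure D1:**
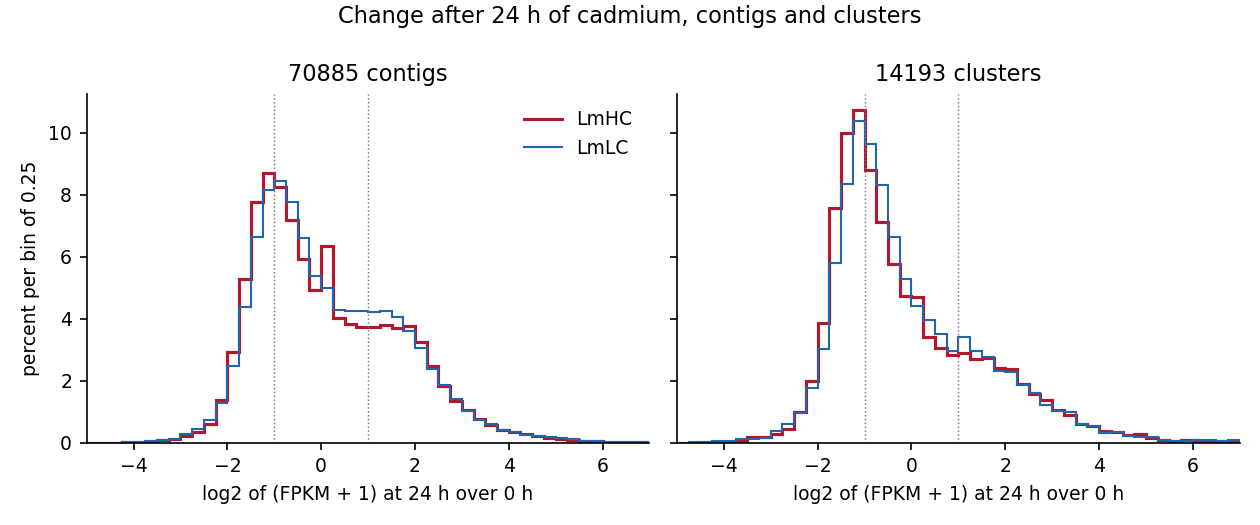
Distribution of log2 of (FPKM + 1) at 24 h over 0 h, in percent of features per bin of 0.25, for contigs (left) and for FPKM summed per cluster (right) in LmHC (red) and LmLC (blue); dotted lines mark 2-fold. With FPKM as deposited, both panels have their peak near -1 and a long right side. The narrow LmHC spike just above 0 among contigs includes 1348 expressed contigs listed at 0 in both LmHC libraries.

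FPKM cannot show whether total RNA changed. The balance of higher and lower contigs, and the position of the most frequent change, depended on the scaling. Median-of-ratios scaling divides each library by its typical ratio to the geometric mean of the 4, taken where none is listed at 0. With it, every LmHC ratio moved up by 0.43 on the log2 scale before the pseudocount. It gave 23175 contigs at least 2-fold higher and 11565 lower, so the higher share of all changed contigs was 66.7%, against 50.6% as deposited. The excess of higher over lower contigs at 8-fold was present under both scalings. In tissue samples, fewer cells of a type and less RNA per cell cannot be told apart.

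Abundance classes were set from the mean of the 4 libraries. In the class of 1 to 5 FPKM, with 43916 contigs, 29.7% had a level at least 2-fold higher in LmHC at 24 h and 23.2% a lower one, and the median log2 ratio was 0.0. From 5 to 20 FPKM (19499 contigs) 25.1% were higher and 35.3% lower, with a median of -0.53. From 20 to 100 FPKM (6426 contigs) the shares were 28.5% and 32.6%, with a median of -0.50. At 100 FPKM or more (1044 contigs) they were 25.2% and 36.6%, with a median of -0.66. As deposited and with these classes, the lowest class alone had more higher than lower contigs. With classes set from LmHC at 0 h, that class too had fewer higher (18.7%) than lower contigs (25.4%). With median-of-ratios scaling higher contigs were the more frequent in all 4 classes, from 34.1% higher and 14.6% lower in the lowest class to 26.8% and 19.0% in the highest.

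In these classes, whose mean includes the 24 h value, the spread of change was wider at higher levels. The standard deviation of the log2 ratio was 1.34 at 1 to 5 FPKM, 1.70 at 5 to 20, 2.08 at 20 to 100 and 2.46 at 100 FPKM or more. The 90th percentile of the log2 ratio was 2.07 in the lowest class and 4.13 in the highest, whereas the 10th percentile was -1.44 and -1.66. Among contigs at least 2-fold higher, the median log2 ratio was 1.81, 2.33, 2.76 and 3.42 from the lowest to the highest class. Among those at least 2-fold lower it stayed between -1.44 and -1.38 in all 4 classes. The pseudocount understates ratios of low contigs, in both directions. The widening with level depended on how the classes were set. With classes from LmHC at 0 h, the standard deviation was 1.29, 1.21, 1.03 and 0.923 from the lowest to the highest class, and the 90th percentile was 1.65, 0.98, 0.35 and -0.10. The median log2 ratio of the higher contigs was then 1.73, 1.84, 1.77 and 1.60. With classes from the mean of the LmLC libraries, which the LmHC ratio does not use but which include a 24 h library, the standard deviation was 1.35, 1.65, 2.06 and 2.39.

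Many contigs changed class in LmHC. Counting those listed at 0 and those above 0 but under 1 FPKM as classes of their own, 44295 of 111761 contigs (39.6%) were in the same class at both times. A further 35855 (32.1%) were in a higher class at 24 h and 31611 (28.3%) in a lower one. These include 7204 contigs that went from listed at 0 to above 0 but under 1 FPKM, and 5058 that went the other way. Whether most contigs changed class therefore depends on keeping these low classes apart. Moves of at least 2 classes were mostly upward, with 11799 contigs up and 2930 down. In LmLC the corresponding numbers were 12085 and 3083.

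The highest class kept its size and was largely refilled. It held 1164 contigs at 24 h and 1094 at 0 h in LmHC, and 504 contigs were in it at both times. Of the 1164, 258 had stood at 20 to 100 FPKM at 0 h, 212 at 5 to 20, 103 at 1 to 5 and 70 under 1 FPKM, and 17 had been listed at 0. The 190 of these that stood under 5 FPKM at 0 h carried 5.10% of the FPKM at 24 h. Contigs leaving the class mostly moved down by a single class, with 562 at 20 to 100 FPKM at 24 h and 27 at 5 to 20. In the opposite direction to the 190, 1 contig of at least 100 FPKM at 0 h was under 5 FPKM at 24 h. It was CL660.Contig3_All, picked out after its values were seen, at 4.83 FPKM in LmHC at 24 h and 160.67 FPKM at 0 h, and at 11.2 FPKM in LmLC at 24 h and 73.12 FPKM at 0 h.

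Detection shifted the same way. In LmHC 6895 contigs reached 1 FPKM or more at 24 h but had been listed at 0 before treatment, and 1885 with 1 FPKM or more before treatment were listed at 0 at 24 h. These contigs held 3.62% of the FPKM at 24 h and 0.506% at 0 h, so they carried little of the change in abundance. The estimated depth was slightly lower at 24 h. Since RSEM, the authors' quantification tool, divides fragments among similar contigs, a contig listed at 0 may still share sequence with fragments that were counted elsewhere.

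**Figure D2:**
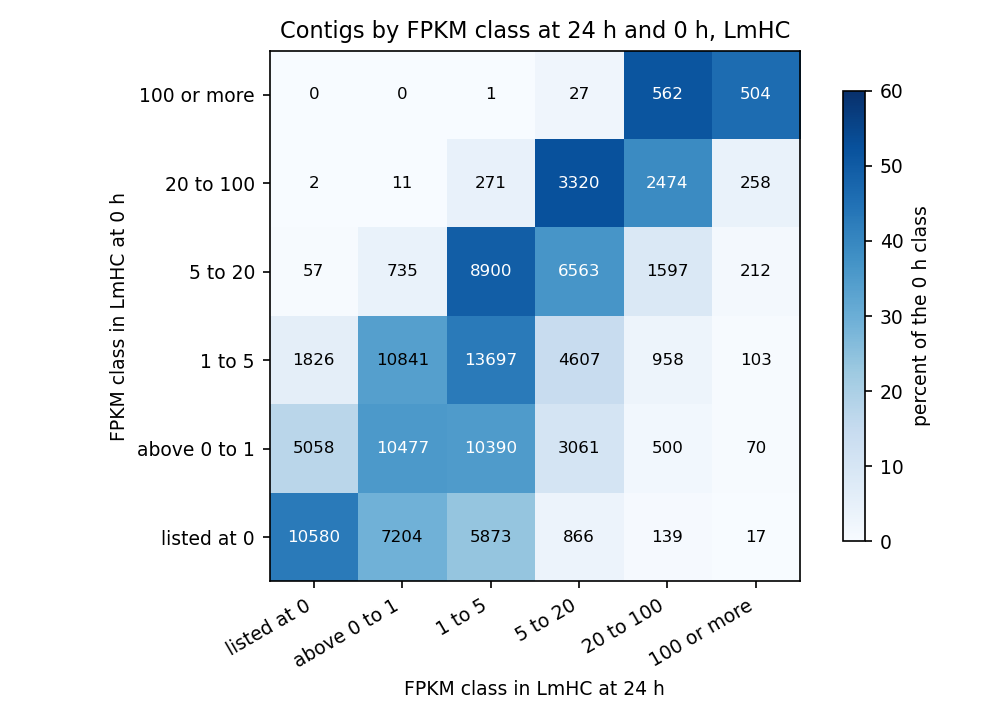
Number of contigs in each combination of FPKM class at 24 h (across) and FPKM class at 0 h (up) in LmHC; the shade is the percent of the 0 h class. From 5 FPKM upward the darkest cell of each 0 h class lies at the next lower class at 24 h (8900, 3320 and 562 contigs), while the lower right corner holds the 190 contigs that stood under 5 FPKM at 0 h and at 100 FPKM or more at 24 h.

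FPKM share was then followed as each contig's percent of its library's total. Gains and losses of share cancel by construction, and their size is the part of the transcriptome that was reallocated. Between 24 h and 0 h in LmHC, 46.7 percentage points moved. In LmLC 46.4 points moved. The 2 lines differed by 11.0 points at 0 h and by 15.4 points at 24 h, a distance that includes counting error, the plants and the library preparation. The reallocation with time in LmHC was thus several times the distance between libraries of different lines at 1 time. Summed per cluster, which removes exchanges within clusters, 44.7 points moved in LmHC and 8.72 points separated the lines at 0 h.

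The reallocation was spread over many contigs. Share was gained by 49569 contigs and lost by 51612 in LmHC. The 100 largest gains summed to 6.54 points and the 100 largest losses to 5.30 points. The gains were the more concentrated, with 1511 contigs accounting for 50% of the gain and 2323 for 50% of the loss. In LmLC these numbers were 1617 and 1959.

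Increases of at least 4-fold supplied most of the gain. The 3086 contigs at least 8-fold higher held 21.0% of the FPKM at 24 h and 0.779% at 0 h. The 6304 contigs 4-fold to 8-fold higher held 13.1% at 24 h and 1.81% at 0 h. Losses came from moderate decreases: the 17510 contigs lower by 2-fold to 4-fold held 15.1% at 24 h and 42.8% at 0 h. Another 18596 contigs, lower by less than 2-fold, held 21.5% at 24 h and 33.0% at 0 h. The 222 contigs at least 8-fold lower held 0.102% at 24 h and 1.46% at 0 h. Shares are relative by construction, and absolute amounts were not measured. The fold classes are as deposited and depend on the scaling. With median-of-ratios scaling 11565 contigs were at least 2-fold lower, against 19536, so fewer would be in the lower classes.

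**Figure D3:**
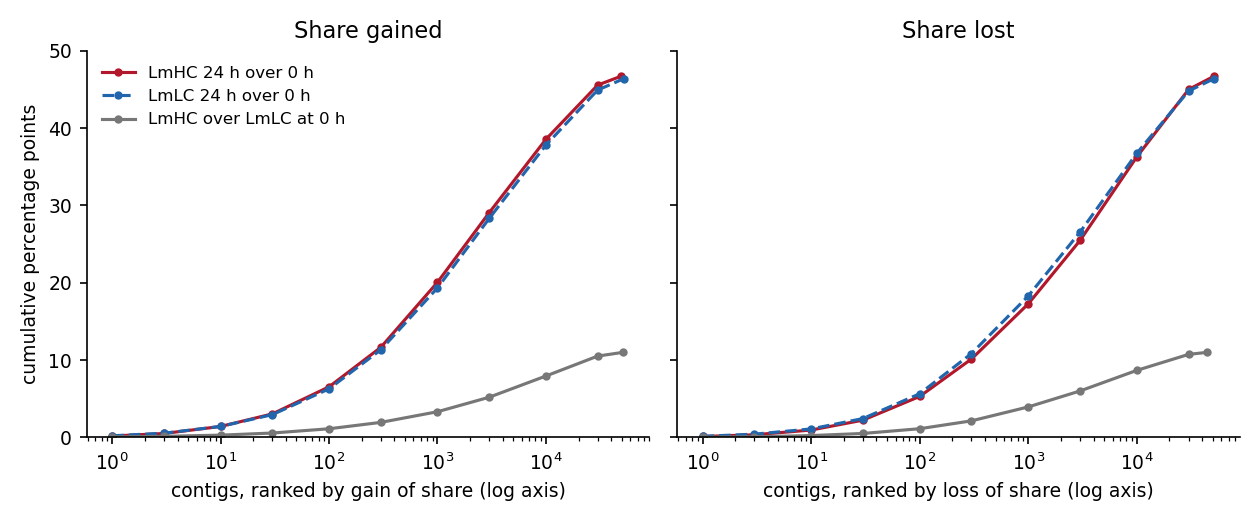
Cumulative percentage points of FPKM share gained (left) and lost (right) against the number of contigs, ranked by size of gain or loss on a log axis, for LmHC at 24 h over 0 h (red), LmLC at 24 h over 0 h (blue, dashed) and LmHC over LmLC at 0 h (grey). The time curves of the lines run close together to 46.7 and 46.4 points, and the curve between the lines ends at 11.0 points.

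The LmHC library became slightly less concentrated. The 1000 highest contigs held 29.0% of the FPKM at 24 h and 31.9% at 0 h, and 50% of the FPKM was reached with 3616 contigs at 24 h and with 3221 at 0 h. The 10 highest contigs went the other way, with 1.58% at 24 h and 1.49% at 0 h. The 100 highest contigs of the 24 h library ranged from 407.89 to 1527.24 FPKM there, and their median at 0 h was 129.8 FPKM. At 0 h 20 of them stood under 10 FPKM and 6 under 1 FPKM. They held 8.18% of the FPKM at 24 h and 3.75% at 0 h. The 100 highest contigs of the 0 h library held 4.04% of the FPKM at 24 h and 8.95% at 0 h, a similar part of their level. Their FPKM at 24 h had a median of 264.1 and a minimum of 28.99, so none was as low as the lowest of the 24 h set at 0 h. In each set 71 contigs were at least 2-fold higher in their own library. At 8-fold there were 42 in the 24 h set and 5 in the 0 h set. Each set was chosen for high levels in its own library, so lower levels in the other are built into this view. In the 24 h set 71 contigs lay in 48 clusters, and in the 0 h set 62 contigs lay in 54 clusters. In LmLC the numbers were 70 in 47 and 63 in 51. Clusters held 60.7% of all expressed contigs. Of expressed contigs with a mean of 20 FPKM or more, 2073 stood alone. At that level 917, 1615, 1623 and 1242 lay in clusters of 1 to 2, 3 to 4, 5 to 9 and 10 or more contigs.

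The contigs with the largest gains of share were CL14765.Contig1_All and Unigene17588_All. CL14765.Contig1_All had 1414.56 FPKM in LmHC at 24 h and 4.53 FPKM at 0 h, and 1683.61 FPKM in LmLC at 24 h and 8.95 FPKM at 0 h. Its rank by level in LmHC was 2 at 24 h and 27326 at 0 h, and its log2 ratio was 8.0 in LmHC and 7.40 in LmLC. Unigene17588_All, which stands alone in the assembly, had 1360.08 FPKM in LmHC at 24 h and 66.23 FPKM at 0 h, and 1097.31 FPKM in LmLC at 24 h and 54.15 FPKM at 0 h. The median expressed contig stood at 3.05 FPKM in LmHC at 0 h, so this contig was already abundant then, and its log2 ratio was 4.34 in LmHC and 4.32 in LmLC. They gained 0.180 and 0.165 percentage points of share in LmHC, so even the largest single gains were a small part of the whole.

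The contigs with the largest losses of share were Unigene14355_All and CL3063.Contig8_All. Unigene14355_All had 269.04 FPKM in LmHC at 24 h and 1220.08 FPKM at 0 h, and 253.05 FPKM in LmLC at 24 h and 1389.76 FPKM at 0 h. It remained an abundant contig at 24 h, at rank 203 in LmHC, with a log2 ratio of -2.18 in LmHC and -2.45 in LmLC. CL3063.Contig8_All had 73.57 FPKM in LmHC at 24 h and 984.54 FPKM at 0 h, and 67.03 FPKM in LmLC at 24 h and 1168.66 FPKM at 0 h. Its log2 ratio was -3.72 in LmHC and -4.10 in LmLC. In all 4 named contigs the change had the same direction in both lines.

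Clusters were examined next, because fragments that fit several contigs of a cluster are divided among them and the sum depends less on that division. The table holds 15237 clusters with 61184 contigs, and 50577 contigs stand alone. Clusters held 68.2% of the FPKM in LmHC at 24 h and 68.7% at 0 h, so the change did not shift abundance between clustered and stand-alone contigs by more than 1 point. Expressed stand-alone contigs were at least 2-fold higher in 28.5% and lower in 28.7% of cases, and expressed clustered contigs in 28.1% and 26.8%.

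Summed per cluster, decreases outnumbered increases. Of 14193 clusters with a mean sum of at least 1 FPKM, 3290 (23.2%) had a sum 2-fold or more higher in LmHC at 24 h and 5169 (36.4%) a sum 2-fold or more lower. The median log2 ratio over clusters was -0.59, against -0.20 over contigs. Past 8-fold there were 735 increases (5.18%) and 77 decreases (0.543%), so large changes leaned upward here too. The 2-fold balance turned with median-of-ratios scaling, with 3903 clusters higher and 2856 lower, a higher share of 57.7% against 38.9% as deposited. In LmLC 23.5% of clusters were at least 2-fold higher and 31.9% lower.

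The direction of change followed the number of contigs in the cluster. Among 5714 expressed clusters of 1 to 2 contigs, 20.3% had a sum at least 2-fold higher in LmHC and 42.9% lower. The shares were 21.7% and 38.3% for 4713 clusters of 3 to 4 contigs, and 28.0% and 28.0% for 2765 clusters of 5 to 9. For 1001 clusters of 10 or more contigs they were 33.2% and 13.9%. Median log2 ratios ran from -0.81 for the smallest clusters through -0.65 and -0.30 to 0.24 for the largest. Median-of-ratios scaling gave -0.46, -0.26, 0.11 and 0.66, so the order by size was kept while the sign at 5 to 9 contigs turned.

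Larger clusters were also more abundant, with a median summed level of 54.5 FPKM at 10 or more contigs and 6.51 FPKM at 1 to 2, so the order was examined within levels. At 5 to 20 FPKM the median log2 ratio was -1.05 for clusters of 1 to 2 contigs and 0.29 for those of 10 or more. At 20 to 100 FPKM these medians were -1.03 and 0.06, and at 100 FPKM or more they were -1.01 and 0.67. At 1 to 5 FPKM the medians were -0.14, 0.25 and 0.35 for clusters of 1 to 2, 3 to 4 and 5 to 9 contigs, so the smallest clusters were not near -1 there, and -0.16 for the 5 clusters of 10 or more. The order by size was thus present over all sizes at 5 FPKM and above, and up to 9 contigs below that. These levels are means over the 4 libraries and include the 24 h values, and the ratios within them are as deposited. Whether levels set from 0 h alone keep the order was not tested. In the most abundant class, 43.9% of the 305 clusters of 10 or more contigs were at least 2-fold higher and 8.52% lower. LmLC gave the same order, with medians of -0.72, -0.54, -0.20 and 0.37 over the 4 sizes.

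Abundance moved toward the large clusters accordingly. Those of 10 or more contigs held 19.6% of the FPKM in LmHC at 24 h and 12.5% at 0 h, and those of 1 to 2 contigs held 9.96% at 24 h and 14.9% at 0 h. Single contigs of clusters showed a like order: of 9612 expressed contigs in clusters of 10 or more, 44.6% were at least 2-fold higher and 14.1% lower, against 17.9% and 39.3% of 8631 contigs in clusters of 1 to 2. The 27886 expressed stand-alone contigs did not continue it, with 28.5% higher and 28.7% lower and a median log2 ratio of -0.19, against a median of -0.76 in clusters of 1 to 2. How many contigs an assembly reports for a cluster depends on the reads it was built from, and the part that assembly played in the order by size was not tested.

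**Figure D4:**
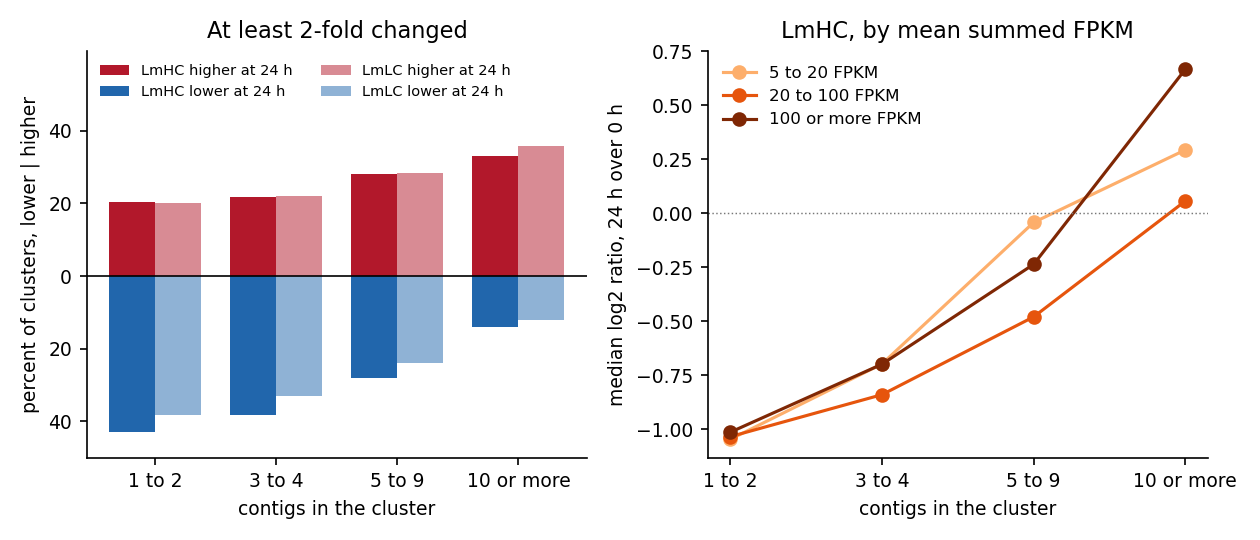
Left, percent of expressed clusters at least 2-fold higher at 24 h (red, upward) and at least 2-fold lower (blue, downward) by number of contigs in the cluster, in LmHC (dark) and LmLC (pale). Right, median log2 ratio at 24 h over 0 h in LmHC by number of contigs, at 3 levels of mean summed FPKM; the level of 1 to 5 FPKM is not drawn, and each line climbs from about -1 in the smallest clusters to between 0.06 and 0.67 in the largest.

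Moves in opposite directions within a cluster were uncommon. Of 10812 clusters with at least 2 expressed contigs, 3170 (29.3%) had 1 or more contigs at least 2-fold higher and none lower in LmHC, and 4572 (42.3%) had 1 or more lower and none higher. In 784 clusters (7.25%) contigs moved at least 2-fold in both directions, and in 2286 (21.1%) none moved that far. All expressed contigs were at least 2-fold higher in 1226 clusters and at least 2-fold lower in 1610. These counts are as deposited. With median-of-ratios scaling the balance turned, with 3895 clusters holding higher contigs alone and 2880 lower contigs alone. Of the 784 clusters with both directions, 585 had a sum within 2-fold. In LmLC 649 clusters (6.0%) had both directions. Values of contigs in 1 cluster depend on each other through the division of fragments, so these counts are descriptions.

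Of the 3086 contigs at least 8-fold higher in LmHC, 2006 (65.0%) lay in 871 clusters, of which 443 held at least 2 of them and 245 at least 3. The fullest cluster held 21. Of the 222 contigs at least 8-fold lower, 146 (65.8%) lay in 112 clusters, of which 23 held at least 2 of them. Clusters held 60.7% of all expressed contigs, so large changes were not far from that background. The leading contig of a cluster also took a smaller part at 24 h. Over 5400 clusters of at least 2 contigs and a mean sum of at least 20 FPKM, the leading contig held a median of 52.9% of the sum at 24 h and 57.5% at 0 h. A different contig led at 24 h than at 0 h in 881 of them (16.3%), while LmHC and LmLC had different leading contigs at 0 h in 545 of 5397 (10.1%). LmLC was alike, with another leading contig in 865 of 5402 clusters (16.0%) and medians of 52.6% at 24 h and 56.9% at 0 h.

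The clusters with the largest ratios were CL3835 and CL4030. The 14 contigs of CL3835 summed to 2345.64 FPKM in LmHC at 24 h and 1.26 FPKM at 0 h, and to 1615.83 FPKM in LmLC at 24 h and 4.88 FPKM at 0 h. All 14 were at least 8-fold higher in LmHC, with log2 ratios from 3.37 to 9.0, and 7 of them were listed at 0 at 0 h. The cluster's log2 ratio was 10.0 in LmHC and 8.10 in LmLC. The 17 contigs of CL4030 summed to 1930.54 FPKM in LmHC at 24 h and 0.97 FPKM at 0 h, and to 2088.33 FPKM in LmLC at 24 h and 4.03 FPKM at 0 h. In LmHC 14 of these contigs had increases of 8-fold or more, and 8 reached 100 FPKM at 24 h. The cluster's log2 ratio was 9.94 in LmHC and 8.70 in LmLC. The contigs of both clusters were near or at 0 before treatment in either line.

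The clusters with the smallest ratios, CL6415 and CL6486, were of modest level. The 5 contigs of CL6415 summed to 0.26 FPKM in LmHC at 24 h and 43.91 FPKM at 0 h, and to 0.72 FPKM in LmLC at 24 h and 19.48 FPKM at 0 h. The log2 ratio was -5.16 in LmHC and -3.57 in LmLC, and 4 of the 5 contigs were at least 2-fold lower in LmHC. The 4 contigs of CL6486 summed to 0.40 FPKM in LmHC at 24 h and 36.76 FPKM at 0 h, and to 0.42 FPKM in LmLC at 24 h and 31.19 FPKM at 0 h. Its log2 ratio was -4.75 in LmHC and -4.50 in LmLC. The decreases thus started from sums far below the levels that CL3835 and CL4030 reached at 24 h.

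**Figure D5:**
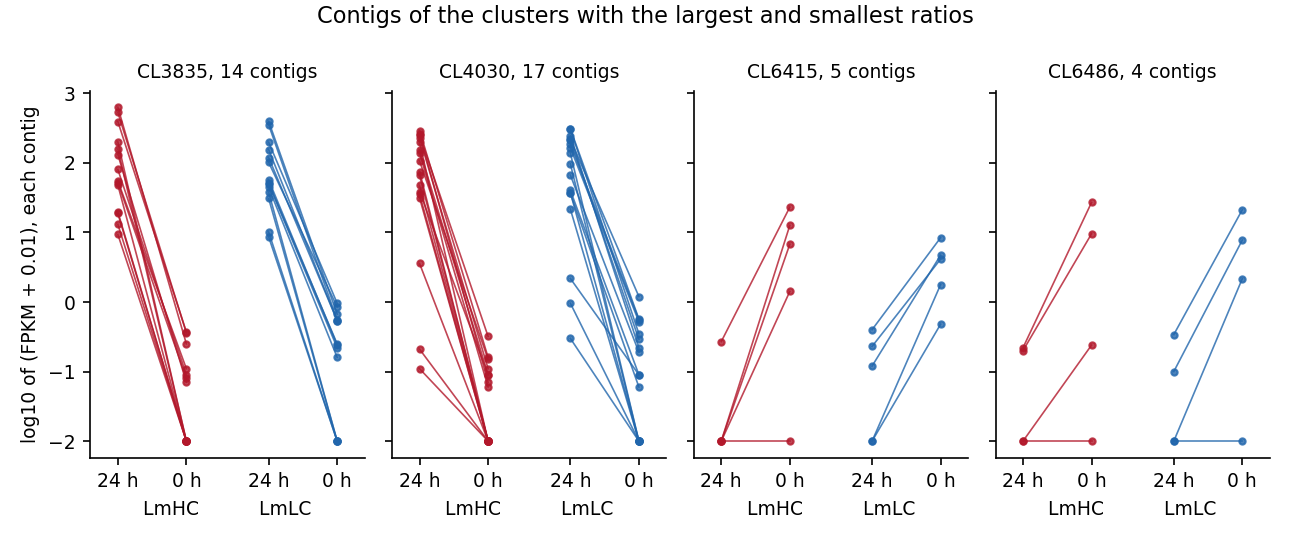
Level of every contig of the 4 named clusters as log10 of (FPKM + 0.01) at 24 h and 0 h, in LmHC (red) and LmLC (blue), with a line joining the values of a contig; values listed at 0 sit at -2. Contigs of CL3835 and CL4030 lie higher at 24 h in both lines, and contigs of CL6415 and CL6486 lie at or below their 0 h values.

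By share rather than ratio, other clusters stood out, and these were picked out after their values were seen. CL911, with 22 contigs, summed to 7382.7 FPKM in LmHC at 24 h and 1876.29 FPKM at 0 h, and to 6927.63 FPKM in LmLC at 24 h and 1948.42 FPKM at 0 h. It held 0.944% of the LmHC library at 24 h and 0.240% at 0 h. Its log2 ratio was only 1.98, and 17 of its contigs were at least 2-fold higher and none lower. CL3063, the cluster of a contig named above, had the largest loss. Its 8 contigs summed to 190.94 FPKM in LmHC at 24 h and 2623.99 FPKM at 0 h, and to 185.36 FPKM in LmLC at 24 h and 3350.81 FPKM at 0 h. All 8 were at least 2-fold lower in LmHC, with log2 ratios from -3.90 to -3.22.

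The cluster changes of LmHC were set beside those of LmLC, which share no library with them. Of the 3290 clusters at least 2-fold higher in LmHC, 2851 (86.7%) were also at least 2-fold higher in LmLC, where 23.5% of all clusters were. Of the 5169 lower in LmHC, 3778 (73.1%) were at least 2-fold lower in LmLC, where 31.9% of all were. The median log2 ratio of the higher clusters was 2.09 in LmHC and 1.98 in LmLC, and that of the lower clusters was -1.43 in LmHC and -1.26 in LmLC. The clusters were chosen for being high or low in LmHC, so a smaller ratio in LmLC is built into this view. The log2 change of LmHC minus that of LmLC was at least 1 in 547 clusters (3.85%) and at most -1 in 704 (4.96%). None of these differences has a replicate check.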

How the data were processed

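Members, lists and comparisons were chosen with earlier results of these data known. The authors deposited FPKM values per contig, rounded to 2 decimals, 1 column per library. The submitters' processing notes name Bowtie2 2.2.5 and RSEM 1.2.8. The assembler, contig lengths, filters and strand setting are not stated in the sources used here. Columns were matched to samples by title. Ratios were log2 of (FPKM + 1) at 24 h over 0 h, for contigs, or clusters by summed FPKM, with a mean of at least 1 FPKM over the 4 libraries. Counts used 2-fold and 8-fold limits. Shares are FPKM over the column total. Named contigs were the 2 largest gains and 2 largest losses of share, and named clusters the 2 largest and 2 smallest ratios. No test was run, because each group had 1 library. Contigs carried no gene names, so gene lists were not applied. Relative depth was the most frequent ratio of low values among stand-alone contigs. Analyses used Python 3.11.15, numpy 2.4.6 and pandas 2.3.3, and figures matplotlib 3.10.9. Counting and shares were run on simulated data with few changed contigs, all at 5 FPKM or more, and without division of fragments among contigs. That run cannot show how exact the counts are here, where many contigs changed and many are low. Alternatives were other pseudocounts, filters, scalings, class definitions and cluster sums.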

Additional observations from a re-analysis of the deposited data

Results flagged for a closer look

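In 10 of 14193 clusters the single pair of LmHC libraries and the single pair of LmLC libraries moved at least 2-fold in opposite directions between 24 h and 0 h. They were 4 of the 3290 clusters higher in LmHC and 6 of the 5169 lower. In LmLC 31.9% of all clusters were at least 2-fold lower and 23.5% higher, so opposite moves were rare. They were picked out for this opposition, and the difference was not tested. The highest summed level among them in any library was 61.33 FPKM, and in the lowest of them no library exceeded 2.8 FPKM.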

How the results depend on the processing

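No paired analysis was possible because each group had 1 library, and for the same reason no library could be left out. Of 95 alternative values, 48 stayed within the limit set for them, which was 1.5 times for counts and percentages and the same 3 digits for medians and moved shares, and 47 did not. Some of the 47 differ little, such as the moved shares and the cluster median with equal column totals. Beyond what each setting does by construction, the cause was not tested. The table gives no fragment numbers, so counting intervals could not be computed, and low contigs are the least certain.

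With a pseudocount of 5, 8369 contigs were at least 2-fold higher and 5788 lower, and 739 and 23 at 8-fold; 2964 clusters were lower at 2-fold, and 312 higher and 10 lower at 8-fold. With a pseudocount of 0.1, 10926 contigs and 1422 clusters were at least 8-fold higher, and 2238 contigs and 288 clusters lower. Restricted to means of 5 FPKM or more, which leaves fewer contigs to count, 6984 contigs were 2-fold higher and 9356 lower. The higher share of changed contigs was then 42.7%, against 50.6% with the filter of 1 FPKM, so the numbers were less alike. With median-of-ratios scaling, 11565 contigs and 2856 clusters were lower at 2-fold, and 109 contigs and 41 clusters at 8-fold.

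The median log2 ratio over contigs turned to 0.022 with median-of-ratios scaling. At pseudocounts of 0.1 and 5 it was -0.27 and -0.093, and it was -0.53 for means of 5 FPKM or more and 0.0 without a filter. Over clusters it was -0.65, -0.41, -0.70 and -0.50 in the same order, -0.20 with median-of-ratios scaling and -0.588 with equal column totals.

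Classes set from LmHC at 0 h alone, which the contrast itself uses, gave 18.7%, 9.78%, 5.54% and 3.56% of contigs at least 2-fold higher from the lowest to the highest class, and 25.4% and 52.7% lower at 1 to 5 and at 20 to 100 FPKM. The balance in the lowest class thus turned toward lower contigs, and the spread no longer widened with the level. Classes set from LmLC stayed within 1.5 times. The moved share was 46.2 points over expressed contigs alone, 46.2 without the 100 highest contigs of either library, and 44.7 points summed per cluster.

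Within clusters, counts are given as higher alone, lower alone, both directions and neither. A pseudocount of 5 gave 1923, 2435, 122 and 6332, and there were 1286, 2198, 119 and 1219 for means of 5 FPKM or more. That filter leaves fewer clusters to count, so its numbers have a smaller base than the others. Clusters with neither direction numbered 1395 with a pseudocount of 0.1. Median-of-ratios scaling gave 3895, 2880, 581 and 3456 in the order above, so higher alone became more frequent than lower alone.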
